A study of Mus musculus with 9 samples.

Results

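Cyclin-dependent kinase (CDK) inhibitors are small proteins that bind cyclin-CDK complexes and hold cells before S phase. The Cip/Kip proteins p21, p27 and p57, encoded by Cdkn1a, Cdkn1b and Cdkn1c, bind several cyclin-CDK complexes, and p53 is the best known activator of Cdkn1a. The INK4 proteins p16, p15, p18 and p19, encoded by Cdkn2a, Cdkn2b, Cdkn2c and Cdkn2d, bind CDK4 and CDK6 and thereby keep D-type cyclins from phosphorylating the retinoblastoma protein, and Cdkn2a also encodes Arf, a separate protein that stabilises p53 by binding MDM2. In lymphoid tumours of mice and humans the Cdkn2a-Cdkn2b locus is often silenced or deleted.

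All probe sets that the array annotation assigns to these 7 genes alone were read on every array. They are 9 probe sets, with 2 for Cdkn1a, 2 for Cdkn1b and 1 for each of the others, out of 45101 probe sets on the array and 18194 genes with a probe set of their own. All 7 genes were among the 12361 genes tested. The level of a probe set is the authors' MAS5 intensity, called signal below, and it is used to compare arrays, since a higher signal of 1 probe set than of another does not rank the genes.

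The arrays held total RNA of T-cell lymphomas from G3 Atm-/-TERT-ER mice. These animals lack Atm, a DNA damage kinase upstream of p53, and their inducible telomerase works only in the presence of 4-hydroxytamoxifen (4-OHT). G3 stands for a late generation bred without telomerase activity. All tumours grew in SCID recipients, a strain without functional T and B cells. The first group was 5 tumours with alternative lengthening of telomeres (ALT) at passage 4 on vehicle. The second group was 3 telomerase tumours at passage 4 on 4-OHT, and a single parental tumour, labelled as using telomerase, has no replicate and entered no test. Both passage 4 groups came from the same parental lines, so telomere maintenance mechanism and exposure to vehicle or 4-OHT cannot be told apart, and host cells of the recipients can contribute RNA to every array. The labels do not say if the tumours within a group arose from separate primary lymphomas, so p-values measure the spread between these samples.

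The 9 arrays had similar scales, with median signals from 39.8 to 43.8 and 28.2% to 30.7% of probe sets under a signal of 16. T-cell markers were present throughout, with Cd3d between 6700 and 9846 and Cd3e between 1229 and 2387. The 9 measured T-cell markers summed to 21570 to 27300 in ALT tumours, against 29540 to 31980 in telomerase tumours and 31100 in the parental tumour, and 1 of the 9 passed the test upwards (Cd2) and 3 downwards (Cd3g, Cd3d and Cd3e). Pancreatic acinar transcripts differed by array, with a summed signal of 92460, 143900, 1013, 602 and 187000 in ALT tumours 1 to 5, against 434, 356 and 119100 in telomerase tumours 1 to 3 and 316 in the parental tumour. Skeletal muscle transcripts summed to 267 to 362 in ALT tumours, against 8971, 621 and 283 in telomerase tumours 1 to 3 and 13580 in the parental tumour. Endothelial, stromal and macrophage sums overlapped between the passage 4 groups, and the 5 measured B-cell markers summed to 859.8 to 1152 in ALT tumours, against 789 to 821 in telomerase tumours and 859 in the parental tumour. Of these, Cd79b averaged 473 in ALT tumours and 436 in telomerase tumours, Blk 418 and 313, and Cd79a lay between 4.42 and 16.6 on the 9 arrays. In such bulk samples, fewer cells of a type and less RNA per cell cannot be told apart.

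Of the 7 CDK inhibitor genes, Cdkn1a and Cdkn2a fell, Cdkn2d rose by a small amount and the other 4 did not pass the test. The test was limma on log2(signal + 16), 5 ALT against 3 telomerase arrays, with Benjamini-Hochberg adjustment over all 12361 genes and a threshold of 0.05. These 3 called members of 7 stand beside a background of 17.5% of all tested genes, made up of 7.47% that were higher and 10.0% that were lower in ALT tumours. Of the 3, Cdkn2a had passed the filter on low values only through the telomerase and parental arrays. Among probe sets, 4 of 9 were called, 1 higher and 3 lower, against a background of 20.1% of 22367 tested probe sets (7.69% higher and 12.4% lower). Counts at an unadjusted p under 0.05, given below for some lists, have a larger background than 17.5%. Of the 12361 genes, 3087 passed even the stricter adjusted p of 0.1 in limma. The members' median log2 change was 0.01 and that of all tested genes -0.01, and the members' median turned to -0.08 when a gene's probe sets were averaged. Without telomerase tumour 1 only 1 member, Cdkn2a, was called, beside 1152 of all 12361 genes. The filter was not redone for that fit, so the Cdkn2a call there adds no separate support.

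**Figure D1:**
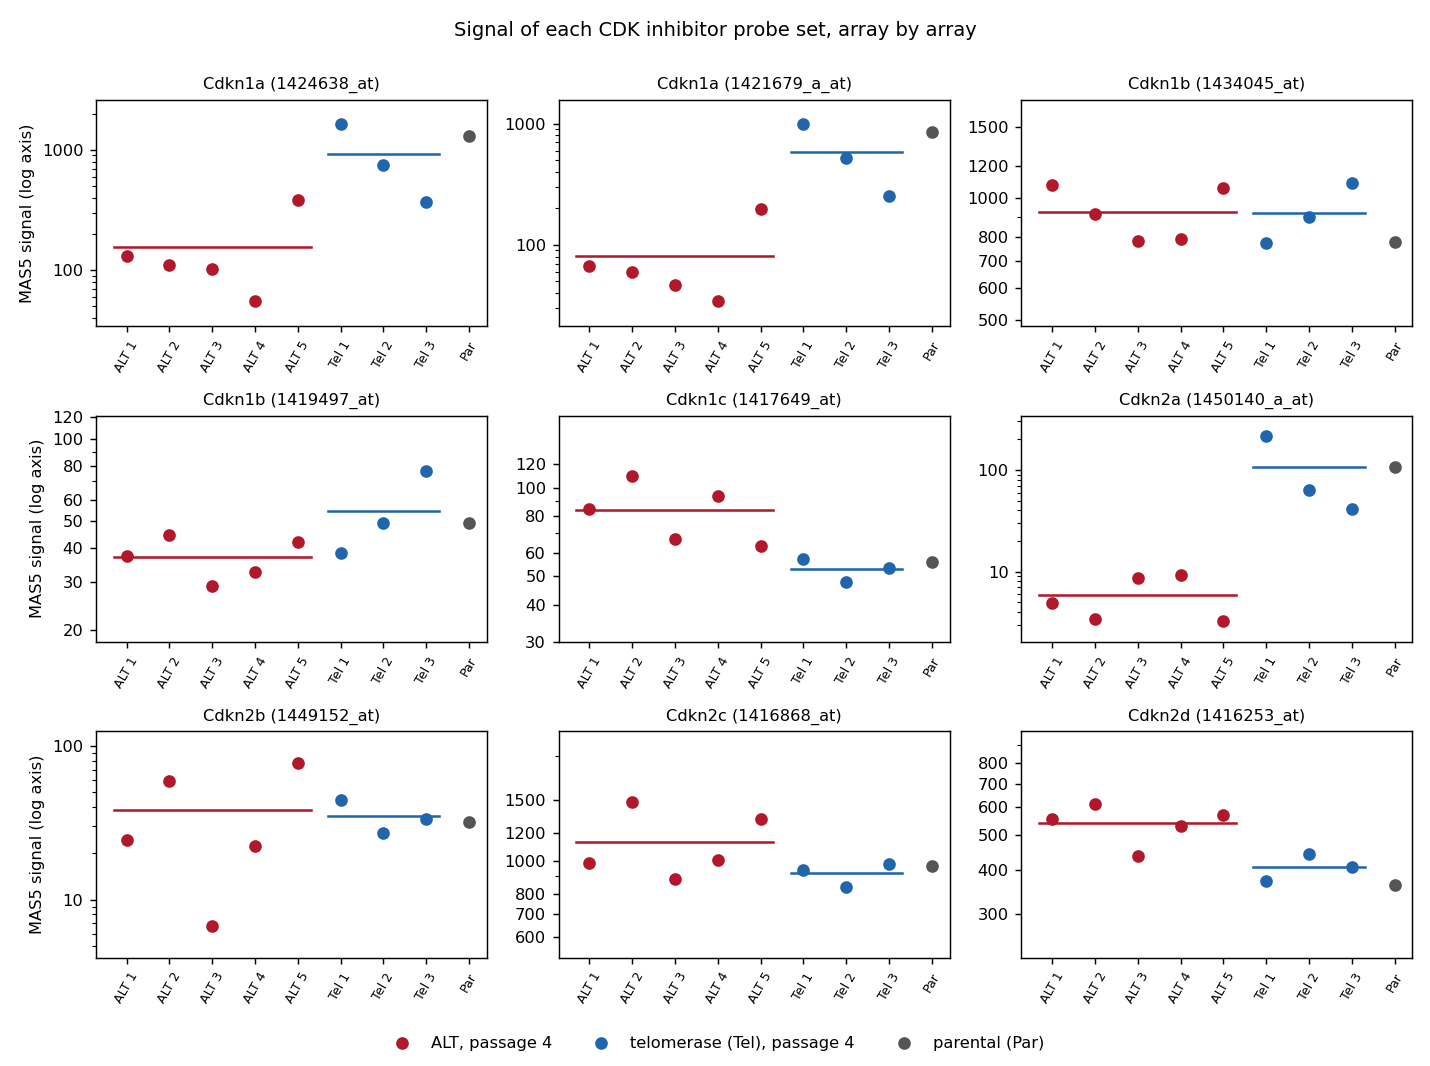
Signal of each of the 9 CDK inhibitor probe sets (log axis, MAS5 intensity) on each array, with 5 ALT, 3 telomerase and 1 parental tumour from left to right; points are arrays and bars are group means. Cdkn2a lies between 3.26 and 9.20 in ALT tumours and between 41.5 and 214 in telomerase tumours, and Cdkn1a varies widely within each group.

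Cdkn1a, whose product p21 inhibits CDK2 complexes and also binds PCNA, fell in ALT tumours. With probe set 1424638_at the signal was 131, 109.7, 103, 55.0 and 386 in ALT tumours 1 to 5, against 1633, 752 and 371 in telomerase tumours 1 to 3 and 1311 in the parental tumour. Of the ALT arrays 4 lay below every telomerase array, and ALT tumour 5 lay just above telomerase tumour 3, so the groups overlapped. The mean was 157 ± 131 in ALT tumours (SD, n = 5) and 919 ± 647 in telomerase tumours (SD, n = 3). On the log2(signal + 16) scale the difference was -2.45 ± 0.55 (SE), with a 95% interval from -3.69 to -1.21 and an adjusted p of 0.0141 in limma. Only 30 of the 12361 tested genes had a change this low or lower, and 0.437% of genes had a log2 change of -2 or lower.

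The other Cdkn1a probe set, 1421679_a_at, gave 67.4, 59.99, 46.7, 34.2 and 198 in ALT tumours, against 984, 522 and 254 in telomerase tumours and 859 in the parental tumour. Here the groups did not overlap, although ALT tumour 5 was again the highest of its group and telomerase tumour 3 the lowest of its own. The log2 change was -2.64 ± 0.48 (SE, adjusted p = 0.00403 in limma over all tested probe sets). The exact two-sided permutation test gave p = 0.0357, the smallest value that the 56 assignments of 5 and 3 arrays allow, and p = 0.0714 for 1424638_at. Both probe sets ranked the arrays nearly alike, with a Pearson correlation of 0.995 over the 9 arrays.

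Cdkn1a also spread widely within each group. Its standard deviation on the log2 scale was larger than that of 98.6% of tested genes among ALT tumours and of 99% among telomerase tumours. Telomerase tumour 1 and the parental tumour, the highest in Cdkn1a, were also the highest in skeletal muscle transcripts. Within the ALT group the muscle sums were all low, from 267 to 362. Whether muscle content contributes to the spread of Cdkn1a was not tested. With the muscle level as a covariate the log2 change of Cdkn1a was -1.74 with an adjusted p of 0.123 in limma. Without telomerase tumour 1 it was -1.92 with an adjusted p of 0.0693. Among the tumours with few acinar transcripts (ALT 3 and 4, telomerase 1 and 2) the change was -3.61, adjusted p = 0.00479 in limma, and among those with many (ALT 1, 2 and 5, telomerase 3) it was -0.99, adjusted p = 0.451. The difference between these 2 changes, 2.62 on the log2 scale, had an unadjusted p of 0.0115 and an adjusted p of 0.790 in limma, where 0 of 12361 genes passed and 5.42% had an unadjusted p under 0.05. The last comparison rests on a single telomerase array. The change was negative under all 26 other settings that gave a value and passed the threshold under 23.

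RefSeq (GRCm38.p6) gives Cdkn1a 2 starts on the plus strand of chromosome 17, 2790 bases apart. The window from 250 bases before to 50 after the upstream start is shown because it holds a p53 response element, marked in capitals, that differs from the consensus at 1 of 20 bases. Its first base lies 51 bases before that start, and the element lies 2822 bases before the downstream start.
Cdkn1a upstream start, chr17:29090729-29091028, plus strand: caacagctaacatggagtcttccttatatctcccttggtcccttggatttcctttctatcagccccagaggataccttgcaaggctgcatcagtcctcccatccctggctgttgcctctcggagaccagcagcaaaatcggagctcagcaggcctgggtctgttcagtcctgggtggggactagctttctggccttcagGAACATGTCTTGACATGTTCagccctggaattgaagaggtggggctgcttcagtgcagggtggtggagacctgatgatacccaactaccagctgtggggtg
Such an element with at most 1 mismatch and no spacer, searched on both strands, was present in 29 of 32851 promoter windows of the same length, or 0.0883%. The window at the downstream start of Cdkn1a held no such match. A match of letters is a description of the sequence and not evidence of binding in these tumours.

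Cdkn1b, which encodes p27, the inhibitor that accumulates in resting T cells, did not differ detectably in the test of genes. Probe set 1434045_at gave 1076, 914, 786, 795 and 1059.8 in ALT tumours, against 775, 896 and 1091 in telomerase tumours and 778 in the parental tumour. The groups covered nearly the same range. The log2 change was 0.01 with a 95% interval from -0.31 to 0.33 (adjusted p = 0.973 in limma), so changes beyond about 0.33 lie outside it. The dimmer probe set 1419497_at gave 29.1 to 44.5 in ALT tumours, against 38.4 to 76.2 in telomerase tumours and 49.3 in the parental tumour, with a log2 change of -0.38 (adjusted p = 0.186 in limma over probe sets). The 2 probe sets followed each other only loosely over the 9 arrays (Pearson correlation 0.504), and their changes differ in sign.

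Cdkn1c, an imprinted gene whose product p57 restrains proliferation of stem and progenitor cells, was somewhat higher in ALT tumours without passing the test. Its probe set gave 84.5, 109.8, 66.9, 94.1 and 63.3 in ALT tumours, against 57.4, 48.0 and 53.3 in telomerase tumours and 56.2 in the parental tumour. Every ALT tumour lay above every telomerase tumour, and the parental tumour lay within the telomerase range. The log2 change was 0.51 ± 0.17 (SE), with a 95% interval from 0.14 to 0.89 and an adjusted p of 0.0638 in limma. The exact two-sided permutation test gave its smallest possible p, 0.0357. With the parental tumour counted as a telomerase tumour the adjusted p was 0.0319, and without ALT tumour 5 it was 0.0360. The change was positive under all 25 other settings that gave a value but passed under only 3, of which 1 was a looser threshold of 0.1. With each array left out in turn the adjusted p in limma ran from 0.0360 to 0.186. Groups that did not overlap were common, at 24.7% of tested genes and 2 of the 7 member genes (28.6%), Cdkn1c and Cdkn2a, and at 26.3% of tested probe sets and 3 of the 9 member probe sets (33.3%).

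Of the imprinted genes around Cdkn1c on chromosome 7, 0 of 6 tested were called, beside 17.5% of all genes. Their median log2 change was 0.00, beside -0.01 for all genes. At an unadjusted p under 0.05, 1 of the 6 passed, Cd81, with a log2 change of 0.33. The non-coding RNA Kcnq1ot1, which silences Cdkn1c on the paternal allele, had 567 ± 70.3 in ALT tumours and 549.6 ± 100.7 in telomerase tumours (SD, n = 5 and 3). Its log2 change was 0.05, adjusted p = 0.845 in limma. Without telomerase tumour 1, 1 of the 6 was called higher, beside 499 of all 12361 genes.

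Cdkn2a had a signal under 16 in every ALT tumour. Its single probe set, 1450140_a_at, gave 4.90, 3.44, 8.73, 9.20 and 3.26 in ALT tumours, against 214, 64.3 and 41.5 in telomerase tumours and 106 in the parental tumour. All 5 ALT arrays lay far below the lowest telomerase array, and all 5 lay under the filter on low values, a signal of 24.2. The means were 5.91 ± 2.87 in ALT tumours (SD, n = 5) and 107 ± 93.9 in telomerase tumours (SD, n = 3). With the ALT tumours set to 24.2, Cdkn2a was at least 3.43-fold lower in ALT tumours by the geometric mean of the telomerase signals, the lowest of which was 41.5. The fitted log2(signal + 16) change was -2.23, adjusted p = 0.00358 in limma, and the exact two-sided permutation p was 0.0357.

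The fitted value is not a measured size, since the ALT signals are too low to have an order and it depends on the constant added before the logarithm. A pseudocount of 64 gave -1.16 (adjusted p = 0.0127 in limma). The filter was on the mean over all arrays, so that a gene with such ALT levels had to differ to be tested. Telomerase tumour 1 was again the highest of its group, and its Cdkn2a signal was 5.17 times that of telomerase tumour 3. Leaving out each array in turn gave log2 changes from -2.64 to -1.64 with adjusted p between 0.00239 and 0.0109 in limma, all 8 past the threshold. The filter was not redone for these fits or for those that follow, so their passing adds no separate support. With the muscle level as a covariate the change was -1.45, adjusted p = 0.00561. Among arrays with few acinar transcripts the change was -2.45, adjusted p = 0.0278, and among those with many it was -1.53, adjusted p = 0.0553.

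**Figure D2:**
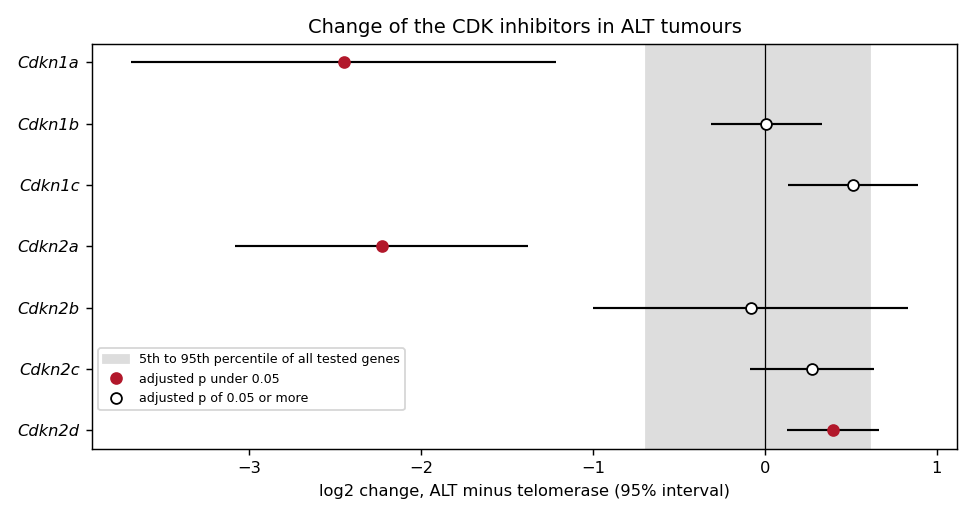
Log2 change of each CDK inhibitor gene, ALT minus telomerase tumours, with 95% intervals from limma on log2(signal + 16); filled points have an adjusted p under 0.05 and the grey band spans the 5th to 95th percentile of all tested genes, -0.69 to 0.61. Cdkn1a at -2.45 and Cdkn2a at -2.23 lie below the band, and the other 5 genes lie between -0.08 and 0.51. The Cdkn2a value rests on ALT signals under the filter level and is no measured size.

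The probe set for Cdkn2a is of the kind designed to match several transcripts of 1 gene, and it does not separate the transcripts for p16 and Arf. The gene lies on the minus strand of chromosome 4, and RefSeq gives it 2 starts that lie 12427 bases apart, of which the upstream is known as the start of the Arf transcript and the downstream as that of p16. Both windows are shown because a single probe set reads the output of both.
Cdkn2a upstream (Arf) start, chr4:89294570-89294869, minus strand: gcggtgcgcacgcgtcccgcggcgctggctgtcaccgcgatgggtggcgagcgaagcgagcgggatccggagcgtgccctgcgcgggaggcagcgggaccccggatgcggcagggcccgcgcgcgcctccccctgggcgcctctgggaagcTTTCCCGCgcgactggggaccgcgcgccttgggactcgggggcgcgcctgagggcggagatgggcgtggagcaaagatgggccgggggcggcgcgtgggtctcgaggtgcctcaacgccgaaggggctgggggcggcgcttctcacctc
Cdkn2a downstream (p16) start, chr4:89282143-89282442, minus strand: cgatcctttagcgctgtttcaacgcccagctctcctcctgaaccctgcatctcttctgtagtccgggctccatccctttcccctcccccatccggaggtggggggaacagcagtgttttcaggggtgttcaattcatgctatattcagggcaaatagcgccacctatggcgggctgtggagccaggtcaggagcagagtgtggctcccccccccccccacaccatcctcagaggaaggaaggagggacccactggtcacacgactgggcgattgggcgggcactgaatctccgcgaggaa
The capitals mark an E2F match in the Arf window at position -99 relative to the start. The motifs searched were TTTCCCGC, TTTCGCGC, TTTGCCGC and TTTGGCGC on both strands, and 2.26% of all windows held 1 of them. The p16 window held none, and the Arf window had a G and C content of 77%, against 60.3% in the p16 window.

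Mtap, which adjoins Cdkn2a on the side away from Cdkn2b, encodes methylthioadenosine phosphorylase, an enzyme of methionine salvage that is often lost together with CDKN2A in human tumours. Its brightest probe set, 1451346_at, gave 2886, 2899, 3217, 3046 and 3637 in ALT tumours, against 3455, 4129 and 3707 in telomerase tumours and 3690 in the parental tumour, a log2 change of -0.26 with an adjusted p of 0.0761 in the limma test of genes. The 3 other Mtap probe sets were looked at after these values were seen, and all 3 fell without overlap between the groups. Probe set 1424425_a_at gave 378, 363, 384, 413 and 341 in ALT tumours, against 799, 834 and 843 in telomerase tumours and 931 in the parental tumour, with a log2 change of -1.10 ± 0.09 (SE, adjusted p = 5.04e-05 in limma over probe sets). Probe set 1424426_at averaged 147 ± 8.45 in ALT tumours and 351 ± 8.64 in telomerase tumours (SD, n = 5 and 3), a log2 change of -1.18 (adjusted p = 4.49e-05). The changes of the 4 Mtap probe sets thus ran from -1.18 to -0.26, all in the same direction as Cdkn2a.

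On the other side of Cdkn2a, Cdkn2b encodes p15, an INK4 protein that transforming growth factor beta induces. Its probe set gave 24.6, 58.9, 6.69, 22.5 and 77.9 in ALT tumours, against 44.7, 27.0 and 33.6 in telomerase tumours and 32.1 in the parental tumour. The ALT tumours lay on both sides of the telomerase range, and none of the telomerase tumours was as low as ALT tumour 3 or as high as ALT tumour 5. The log2 change was -0.08 with a 95% interval from -0.998 to 0.833 (adjusted p = 0.916 in limma), an interval wide enough to hold changes of nearly 1 on the log2 scale. Its standard deviation among ALT tumours exceeded that of 98.2% of tested genes, at a mean signal near the filter level. Of the 10 genes nearest Cdkn2a with a probe set of their own, only Mtap and Cdkn2b were bright enough to be tested.

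**Figure D3:**
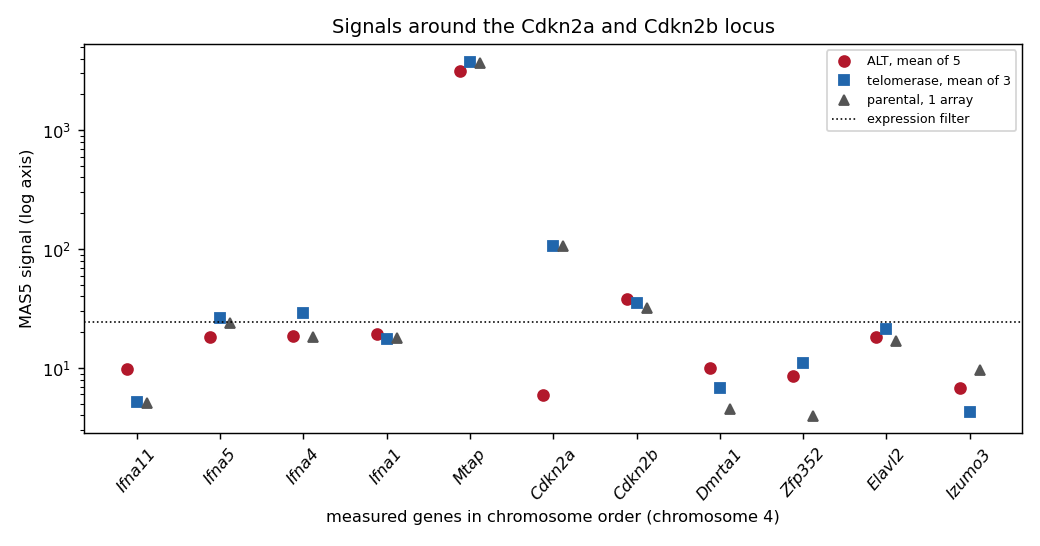
Mean signal (log axis, brightest probe set of each gene) of Cdkn2a and its 10 nearest measured neighbours in gene order along chromosome 4, in ALT, telomerase and parental tumours. Cdkn2a averages 5.91 in ALT tumours and 107 in telomerase tumours, while Cdkn2b averages 38.1 and 35.1 and the brightest Mtap probe set 3137 and 3763.

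Cdkn2c encodes p18, an INK4 protein that is well expressed in developing thymocytes. It gave 985, 1476, 883, 1004 and 1321 in ALT tumours, against 942, 839 and 976 in telomerase tumours and 964 in the parental tumour. The 2 highest arrays were ALT tumours 2 and 5, and the remaining ALT tumours lay close to the telomerase range. The log2 change was 0.27 with a 95% interval from -0.09 to 0.64 (adjusted p = 0.283 in limma). After group means were removed, the 21 pairs of members had Pearson correlations from -0.72 (Cdkn1b and Cdkn2a) to 0.91 (Cdkn2b and Cdkn2c) over 8 arrays. These values describe arrays processed together. The ALT signals of Cdkn2a are too low to have an order, and Cdkn2b had a signal of only 6.69 in ALT tumour 3.

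Cdkn2d, which encodes the INK4 protein p19 and is distinct from Arf despite the shared number, rose slightly in ALT tumours. It gave 558, 614, 437, 530.4 and 572 in ALT tumours, against 371, 443 and 406 in telomerase tumours and 361 in the parental tumour. Only ALT tumour 3 lay within the telomerase range, just under telomerase tumour 2, and the parental tumour was the lowest array. The means were 542 ± 66.3 in ALT tumours (SD, n = 5) and 407 ± 36.0 in telomerase tumours (SD, n = 3). The log2 change was 0.40 ± 0.12 (SE), with a 95% interval from 0.13 to 0.66 and an adjusted p of 0.0467 in limma, and the exact two-sided permutation p was 0.0714. This call is marginal. The change was positive under all 26 other settings but passed under 10, and of the 8 fits without 1 array only the fit without ALT tumour 3 passed (adjusted p = 0.0153), with log2 changes from 0.33 to 0.47 over the 8 and adjusted p up to 0.181.

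The Cdkn2d window is shown for its GC boxes (GGGCGG on either strand, in capitals), of which it holds 5, the most among the 9 member windows. A GC box was present in 35.7% of all windows.
Cdkn2d start, chr9:21291160-21291459, minus strand: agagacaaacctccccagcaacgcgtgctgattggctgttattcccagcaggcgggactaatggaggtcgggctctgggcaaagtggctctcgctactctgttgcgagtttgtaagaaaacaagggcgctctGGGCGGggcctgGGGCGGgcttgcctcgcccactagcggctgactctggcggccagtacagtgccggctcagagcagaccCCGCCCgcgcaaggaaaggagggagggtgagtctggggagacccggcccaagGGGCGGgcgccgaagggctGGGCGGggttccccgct
RefSeq windows were found for 6 of the 7 members, and none is shown for Cdkn1c. No p53 response element was found in the windows of the other members, and the E2F match of Cdkn2a was the only E2F match among the 9 windows.

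For each member the tested genes with the most similar pattern over the 9 arrays were listed by Pearson correlation of log2(signal + 16), over arrays that include the group difference. For Cdkn1a the closest was Zmat3, a p53 target that encodes an RNA-binding zinc finger protein, with a correlation of 0.980, followed by Susd6 (0.979) and Sat1 (0.975). Zmat3 gave 505, 418, 277, 229 and 680.1 in ALT tumours, against 2024, 1460 and 977 in telomerase tumours and 1996 in the parental tumour, and like Cdkn1a it was highest in ALT tumour 5 within its group and lowest in telomerase tumour 3. For Cdkn2a the closest were Gli1, the effector of hedgehog signalling (0.983), Ccdc97 (0.979) and Grrp1 (0.979). Grrp1 averaged 35.1 ± 11.5 in ALT tumours and 229 ± 98.9 in telomerase tumours (SD, n = 5 and 3), and Gli1 averaged 18.6 ± 5.70 in ALT tumours and 94.5 ± 54.5 in telomerase tumours. The ALT mean of Gli1 lay under the filter level of 24.2, so Gli1, like Cdkn2a, passed the filter only through the telomerase and parental arrays. For Cdkn2d the closest was Il17rc (0.993), for Cdkn1c Hacd2 (0.968), for Cdkn2c Pdcd11 (0.956), for Cdkn1b Cp (0.919) and for Cdkn2b Pbxip1 (0.958).

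The CDKs that INK4 proteins bind were themselves lower in ALT tumours. Cdk6, a partner of D-type cyclins that is prominent in T cells, gave 945 to 1039 in ALT tumours, against 1955, 2220 and 2464 in telomerase tumours and 2483 in the parental tumour. The groups were far apart, with a log2 change of -1.14 ± 0.09 (SE, adjusted p = 5.89e-05 in limma), and the other 2 tested Cdk6 probe sets gave -1.21 and -1.16. Cdk4 fell too, with 3952 ± 387 in ALT tumours and 5888 ± 808 in telomerase tumours (SD, n = 5 and 3), a log2 change of -0.57 (adjusted p = 0.00561). The D-type cyclins went in opposite directions. Ccnd1 rose to 1586 to 2148 in ALT tumours, against 624.9 to 1387 in telomerase tumours, a log2 change of 1.16 (adjusted p = 0.00730). Ccnd2 fell by 0.93 on the log2 scale with its brightest probe set (adjusted p = 0.00684), and by 2.501 and 2.37 with 1434745_at and 1416122_at. Of its other probe sets 3 passed the filter only through the telomerase and parental arrays, with ALT means under 24.2, and 1416124_at was not tested and overlapped between groups. Ccnd3 had a change of -0.01 (adjusted p = 0.978). In all, 1 of 14 tested CDK, cyclin and CDK-activating kinase genes rose and 3 fell (28.6%, beside 17.5% of all genes), with a median log2 change of -0.17.

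**Figure D4:**
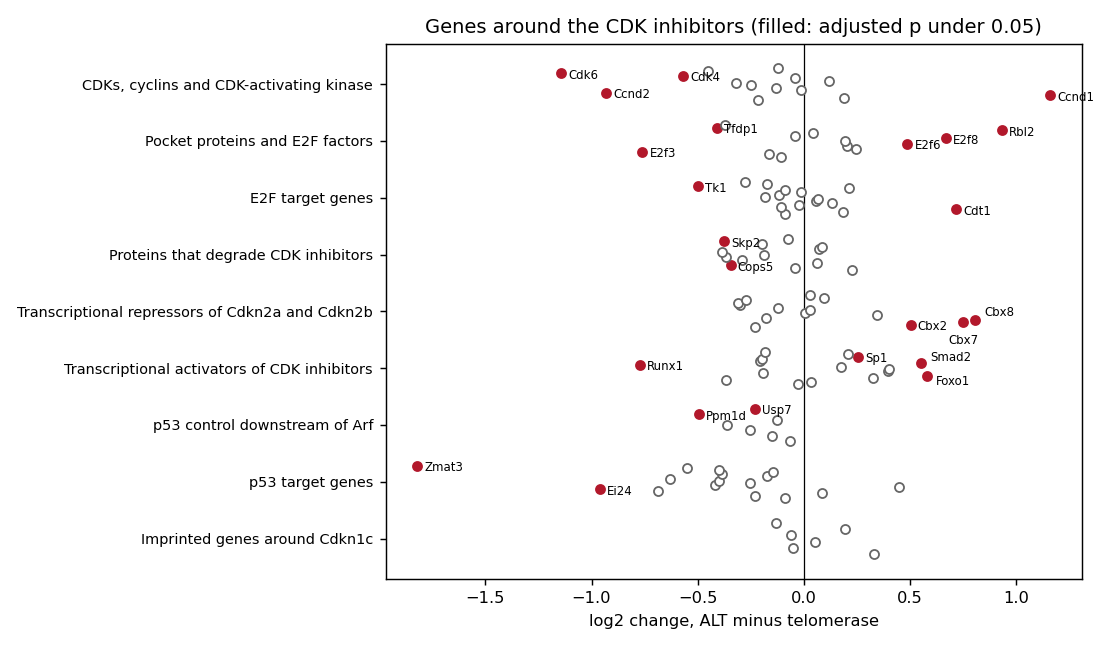
Log2 change, ALT minus telomerase tumours, of every tested gene in the 9 lists of genes that act with or on the CDK inhibitors; filled points have an adjusted p under 0.05 in limma over all genes and carry the gene symbol. Cdk6 at -1.14 and Zmat3 at -1.82 lie furthest below 0, and Ccnd1 at 1.16 lies furthest above.

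Downstream of the CDKs, 3 of 13 tested pocket protein and E2F genes rose and 2 fell (38.5%, beside 17.5% of all genes), with a median log2 change of 0.04. Rbl2, which encodes the pocket protein p130, rose by 0.93 on the log2 scale, with 793 ± 118 in ALT tumours and 407 ± 58.3 in telomerase tumours (SD, n = 5 and 3, adjusted p = 0.00185 in limma). E2f3, an activating E2F, fell by 0.76 (adjusted p = 0.00167), and Tfdp1, the dimer partner of E2F proteins, fell by 0.41 (adjusted p = 0.00425). A dimmer E2f3 probe set, 1427462_at, had 0.18 and did not pass (adjusted p = 0.541 in limma over probe sets). The repressors E2f6 and E2f8 rose by 0.49 (adjusted p = 0.00562) and 0.67 (adjusted p = 0.0120), with E2f8 named after its values were seen, but the dimmer E2f6 probe set went the other way, at -1.33 (adjusted p = 0.00138 in limma over probe sets). Rb1 itself had a change of -0.04 (adjusted p = 0.927). Of 16 tested E2F target genes 1 rose and 1 fell (12.5%, below the background of 17.5%), with a median of -0.06. These were Cdt1, the replication licensing factor, at 0.72 (adjusted p = 0.00128), and Tk1, thymidine kinase, at -0.50 (adjusted p = 0.0317). Without telomerase tumour 1, Tk1 did not pass (-0.38, adjusted p = 0.146).

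Genes that repress Cdkn2a and Cdkn2b gave no falls past the threshold. Of 14 tested, 3 rose and 0 fell (4 and 1 at an unadjusted p under 0.05 in limma). That is 21.4%, near the background of 17.5%, and the 3 were the Polycomb chromobox genes Cbx8, Cbx7 and Cbx2. Cbx8 gave 175 to 225 in ALT tumours, against 96.4 to 116 in telomerase tumours and 99.2 in the parental tumour, a log2 change of 0.81 ± 0.11 (SE, adjusted p = 0.00129 in limma). Cbx7 gave 137 to 216 in ALT tumours, against 97.3 to 107 in telomerase tumours and 91.9 in the parental tumour, a log2 change of 0.75 (adjusted p = 0.00671). Cbx2 had 0.50 (adjusted p = 0.0202), and 0.36 (adjusted p = 0.0832) without telomerase tumour 1. Second, dimmer probe sets of Cbx7 and Cbx8 gave 0.23 and 0.24 and did not pass, and with probe sets averaged within each gene 1 of the 14 rose and 1 fell. The Polycomb genes Bmi1 and Ezh2 had changes of -0.23 (adjusted p = 0.105) and 0.01 (adjusted p = 0.978), and the list's median was 0.02, or -0.0044 without telomerase tumour 1.

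Among 16 tested activators of CDK inhibitor genes 3 rose and 1 fell (25%, beside 17.5% of all genes), with a median log2 change of 0.10. Foxo1, which activates Cdkn1b, rose by 0.58 (adjusted p = 0.00382 in limma), Smad2 by 0.55 (adjusted p = 0.0147, with a dimmer probe set at -0.62) and Sp1 by 0.25 (adjusted p = 0.0386). Foxo1 probe sets 1416981_at and 1416982_at had 0.29 and 0.21 and did not pass (adjusted p = 0.176 and 0.325 in limma over probe sets). Runx1 fell by 0.77 (adjusted p = 0.00186). Its probe sets 1440878_at, 1422865_at and 1452531_at also passed in limma over probe sets, at -0.75, -0.82 and -0.74. The dimmer 1427650_a_at and 1452530_a_at did not, at 0.07 and -0.11 (adjusted p = 0.792 and 0.631). Without telomerase tumour 1, Smad2 and Sp1 did not pass (adjusted p = 0.0606 and 0.0664), 1 gene rose and 2 fell. Proteins that degrade CDK inhibitors gave 0 rises and 2 falls among 13 tested (1 and 5 at an unadjusted p under 0.05 in limma), or 15.4% beside 17.5% of all genes, with a median of -0.19. Skp2, the F-box protein that targets p27, fell by 0.38 (adjusted p = 0.0327), and Cops5, a signalosome subunit that binds p27, fell by 0.35 (adjusted p = 0.00959), with adjusted p = 0.0518 for Cops5 without telomerase tumour 1. In limma over probe sets, Skp2 probe sets 1437033_a_at and 1418969_at also passed, at -0.38 and -0.49. Skp2 probe sets 1436000_a_at, 1425072_at and 1449293_a_at did not, at -0.26, -0.14 and -0.46.

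Of 16 tested p53 target genes other than Cdkn1a, 0 rose and 2 fell, with a median log2 change of -0.39 beside -0.01 for all genes. The 2 are 12.5% of the list, near the 10.0% of all genes that fell and below the 17.5% called in either direction. Of the 16, 14 had a change below 0, where 6444 of all 12361 genes had a change of 0.01 or lower. At an unadjusted p under 0.05 the limma counts were 1 higher and 5 lower. That threshold is looser than an adjusted p of 0.1, which 3087 of all 12361 genes passed. The 2 called falls were Zmat3, at -1.82 ± 0.34 (SE, adjusted p = 0.00565 in limma), and Ei24, at -0.96 ± 0.18 (SE, adjusted p = 0.00516). The next in order of p, Trp53inp1 and Sesn2, had -0.55 (adjusted p = 0.0548) and -0.40 (adjusted p = 0.0583). Among arrays with few acinar transcripts 4 of 16 fell, with a median of -0.51, where 6.77% of all genes were called. Among those with many, which hold a single telomerase array, 0 fell, with a median of -0.09, where 2.70% of all genes were called. The difference between these counts was not tested. Genes that control p53 downstream of Arf gave 0 rises and 2 falls among 7 in limma (0 and 3 at an unadjusted p under 0.05), Ppm1d at -0.49 (adjusted p = 0.0172, with another probe set at 0.39) and Usp7 at -0.23 (adjusted p = 0.0391), and 0 calls without telomerase tumour 1. The 2 calls are 28.6% of these genes, beside 17.5% of all genes. Usp7 probe set 1454949_at also passed in limma over probe sets, at -1.01. Usp7 probe sets 1454948_at, 1434371_x_at, 1438249_at, 1437118_at and 1419921_s_at did not, at -0.22, -0.22, 0.11, -0.27 and -0.12. Mdm2, the ubiquitin ligase that Arf binds and also a p53 target, had -0.26 (adjusted p = 0.168).

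Around the other members, gene order gave few calls among the 10 nearest measured genes. Bnip5 near Cdkn1a fell by 1.03 on the log2 scale (adjusted p = 0.00940 in limma), as the only call among 9 tested there. Near Cdkn1c, Trpm5 rose by 0.45 (adjusted p = 0.0465) and Cars fell by 0.38 (adjusted p = 0.0194) among 6 tested. No neighbour of Cdkn1b, Cdkn2c or Cdkn2d passed in limma, among 8, 6 and 9 tested, beside 17.5% of all genes called. At an unadjusted p under 0.05 in limma the counts were 1, 1 and 0. At the stricter adjusted p of 0.1, 3087 of all 12361 genes passed.

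**Figure D5:**
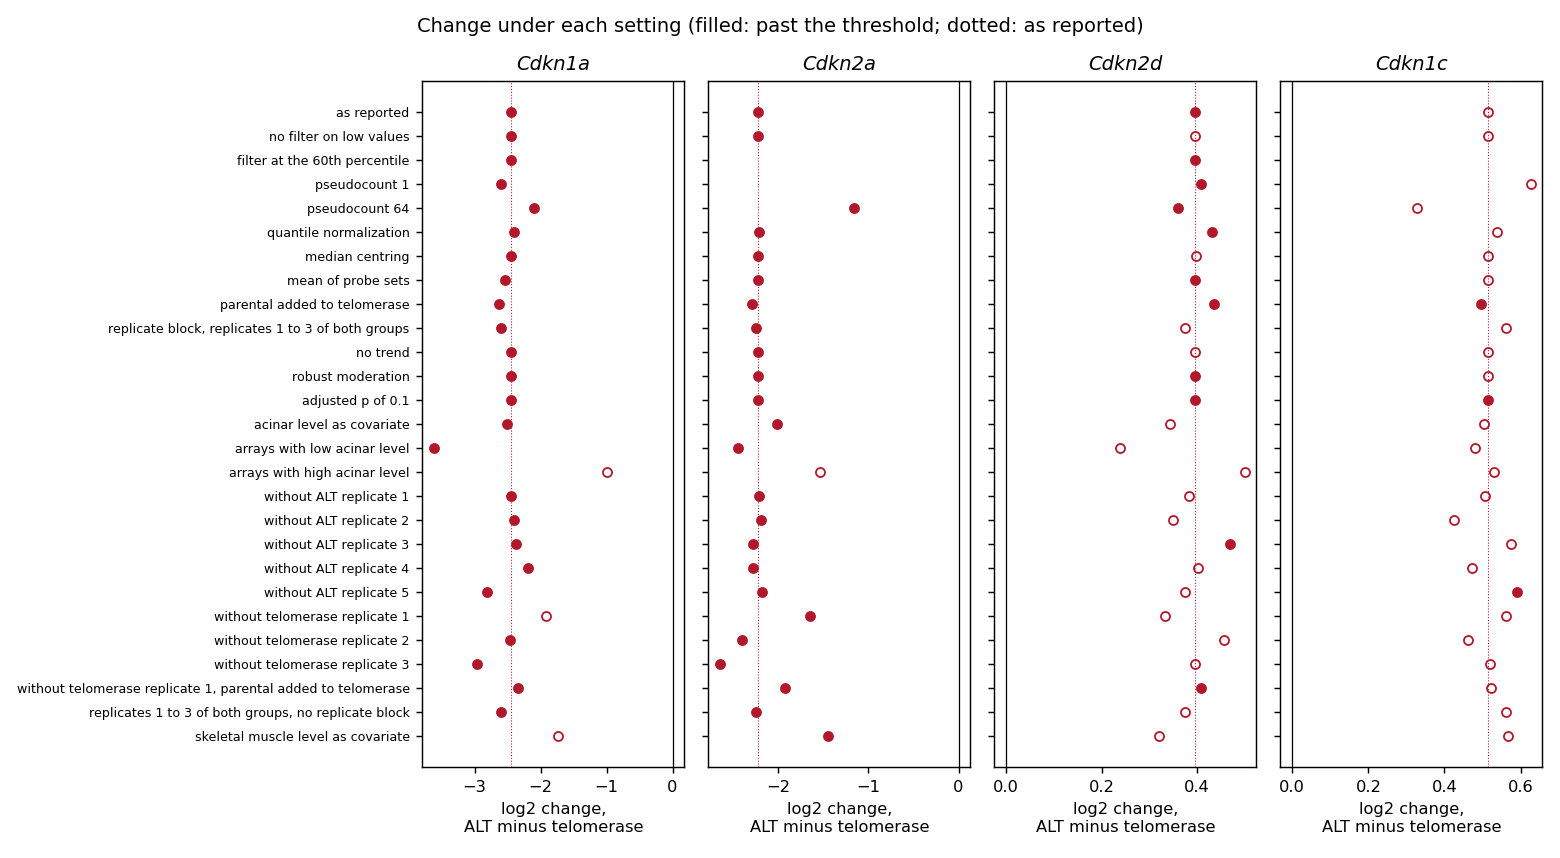
Log2 change, ALT minus telomerase tumours, of Cdkn1a, Cdkn2a, Cdkn2d and Cdkn1c under each processing setting; filled points are past the threshold in limma and dotted lines mark the reported values. Cdkn1a stays between -3.61 and -0.99 and Cdkn2a between -2.64 and -1.16, whereas Cdkn2d and Cdkn1c pass the threshold only under some settings.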

How the data were processed

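Per the submitters' processing notes, the authors computed the deposited intensity values with MAS5 from Affymetrix mouse arrays, and its version, settings and scaling target were not given in the sources used here. Values were deposited for 45101 probe sets on 9 arrays, with no detection calls, so the background level is unknown, and precision is limited by the few arrays. The annotation of the array linked 34958 probe sets to 1 gene, 932 to several genes and 9211 to none, and all 7 member symbols were found in RefSeq GRCm38.p6, which gave gene order and promoter windows.

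Intensities were not normalised further and were analysed as log2(signal + 16). Each gene was represented by its brightest probe set over the 9 arrays, and genes above the 40th percentile of probe sets were tested with limma 3.58.1 in R 4.3.3 (intensity trend, two-sided, Benjamini-Hochberg over 12361 genes). The same model was fitted to 22367 single-gene probe sets. Single signals were compared with an exact two-sided permutation test over 56 assignments. The model was tested on simulated data. Plots used Python 3.11.15 and matplotlib 3.10.9.

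The members, the gene lists and the tests were chosen with earlier results of these data known. All members are named. Other names were drawn from the 3 genes most like each member, its 5 nearest measured genes on either side and up to 4 genes of each list with the smallest p, of which the text gives a part. Genes outside these, such as Ccnd3, E2f8, Rb1, Bmi1 and Ezh2, were named after their values were seen. For list genes the only array left out was telomerase tumour 1. Further probe sets of list genes and neighbours were examined after the values were seen. Of 207 genes in the lists 194 had a probe set of their own, and the others were not analysed here. Other settings changed the filter, pseudocount, normalisation, probe set rule, variance model, use of the parental tumour, replicate block, terms or subsets for acinar or muscle transcripts, and the arrays included.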

Additional observations from a re-analysis of the deposited data

Results flagged for a closer look

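The Cdkn1a signal of ALT tumour 5 stood apart from the other 4 ALT tumours. It was 386 with probe set 1424638_at, where the others ranged from 55.0 to 131, and 198.4 with 1421679_a_at, where the others ranged from 34.2 to 67.4. The gap to the nearest tumour was 0.769 and 0.798 of the whole range of the group, above Dixon's 95% critical value of 0.71 for 5 samples. On the log2(signal + 16) scale the ratios were 0.579 and 0.65, below that value. Chance alone puts about 1 in 20 groups past it. Without ALT tumour 5 the log2 change of Cdkn1a was -2.82, adjusted p = 0.00261 in limma.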

How the results depend on the processing

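The main comparison called 2161 of 12361 genes in limma, and leaving out each array in turn gave 1152 to 2080. The count was 995 with the replicate block over tumours 1 to 3 of both groups (1717 for the same arrays without it), 837 among arrays with few acinar transcripts, 334 among those with many and 905 with the muscle covariate, an alternative chosen after seeing the data. Same-numbered tumours did not deviate together (correlations of deviations from group means of -0.321, -0.389 and -0.607 for numbers 1 to 3), and none of the 3 ALT tumours correlated best with its own number. The tumours also differ in acinar transcripts, the labels do not say what a number marks, and the samples were treated as sharing only a number. The replicate block left Cdkn1a and Cdkn2a called and gave Cdkn2d an adjusted p of 0.174. Member genes called numbered 1 to 3 with an array left out, 0 among arrays with many acinar transcripts and 1 with the muscle covariate, and member probe sets called numbered 2 to 5, 1 and 2 under these settings. The subset with many acinar transcripts has a single telomerase array, assumed to vary like the ALT arrays.

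Among the 7 member genes, changes of sign concerned Cdkn1b and Cdkn2b, neither of which passed the threshold in the test of genes under any setting. The cause of these changes of sign was not tested. With the acinar covariate the test of probe sets called 4 member probe sets lower. These included the dimmer Cdkn1b probe set, 1419497_at. Cdkn1b had a log2 change of -0.19 with the mean of its probe sets, -0.11 with the acinar covariate, -0.074 and -0.10 among arrays with few and with many acinar transcripts, -0.16 with the muscle covariate, and -0.047, -0.041, -0.11 and -0.0024 without ALT tumour 1, ALT tumour 5, telomerase tumour 1 and telomerase tumour 2. Cdkn2b had 0.00019 with a pseudocount of 64, 0.41 among arrays with many acinar transcripts, 0.064 with the muscle covariate, 0.19 and 0.049 without ALT tumour 3 and telomerase tumour 1, and 0.030 with the parental tumour in place of telomerase tumour 1. With each array left out in turn Cdkn1b ranged from -0.11 to 0.14 and Cdkn2b from -0.33 to 0.19. Quantile normalisation moved the share of called genes that were higher in ALT tumours to 52%, against 42.7% as reported. Cdkn2a was not tested with a filter at the 60th percentile or a pseudocount of 1, which left it below the filter.

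The 3 telomerase arrays limit the precision of every value, and without detection calls the order of signals under 16, such as those of Cdkn2a in ALT tumours, cannot be judged.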

Other observations

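Along chromosome 4, the 15 measured genes on either side of Cdkn2a were read with every probe set of their own. Of 23 tested probe sets of 14 of these genes, 6 were called lower and 1 higher in ALT tumours, beside backgrounds of 12.4% and 7.69% of all tested probe sets. The lower calls were 3 probe sets of Mtap and 1 each of Mllt3, Plaa and Ift74. The higher call was Lrrc19, at 0.42 (adjusted p = 0.0479 in limma over probe sets). Mllt3 was called with its dimmest probe set, 1429205_at, at -0.54. Its brightest, 1453622_s_at, went the other way, at 0.48 (adjusted p = 0.0643). Ift74, a component of the machinery that builds cilia, averaged 70.9 ± 14.6 in ALT tumours and 127 ± 4.90 in telomerase tumours (SD, n = 5 and 3), a log2 change of -0.73 (adjusted p = 0.00687 in limma over probe sets). Plaa was called with 1435001_at, at 123 ± 18.0 in ALT tumours and 257 ± 18.8 in telomerase tumours, but its brightest probe set had a log2 change of 0.04 (adjusted p = 0.745). Focad and Klhl9, farther out on the Mtap side, had changes of 0.14 and -0.15 and did not pass. These genes were looked at after the Mtap values were seen.

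Probe sets of a gene disagreed elsewhere among the genes that act on CDK inhibitors. Ppm1d, a p53 phosphatase, fell by 0.49 on the log2 scale with 1434142_at and rose by 0.39 with 1449092_at (adjusted p = 0.0145 and 0.0468 in limma over probe sets). Smad2 rose by 0.55 with 1420634_a_at and fell by 0.62 with 1442062_at (adjusted p = 0.0122 and 0.0181). Terf2ip, which encodes the telomere protein Rap1 and was among the genes most like Cdkn1c, had 164 ± 22.2 in ALT tumours and 114 ± 2.00 in telomerase tumours with 1426049_a_at (SD, n = 5 and 3), a log2 change of 0.46 (adjusted p = 0.0240), and -0.25 (adjusted p = 0.206) with the dimmer 1419381_at.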
